A study of Saccharomyces cerevisiae with 6 samples.

Results

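The 10 genes described here encode the enzymes and helper proteins of coenzyme Q synthesis in the budding yeast Saccharomyces cerevisiae: COQ1 to COQ6, CAT5 (the name the array annotation gives to COQ7), COQ8, COQ9 and COQ10. They were taken by gene symbol from the 5449 yeast genes that the arrays measured, and each is read by 1 probe set. The group, and COQ6 within it, was selected on the difference between the mutant and the wild type in these same arrays, so the members' levels and differences are given as a description, without a test. Expression was measured on 6 single-channel arrays hybridised with biotin-labelled cRNA. The mutant strain, labelled WY317, carries histone H2B K111A, in which alanine replaces a lysine, and has 3 arrays. The wild-type strain, labelled PY014, carries unaltered H2B and also has 3 arrays, which per their titles served a second mutant, H2B R102A, not analysed here. All cells grew in the rich medium YPD to mid-log phase and were harvested at an OD600 of 0.35 to 0.7. The labels do not say whether replicates came from separate cultures, so the errors and p-values cover the spread between these arrays, which may be technical, and 1 strain stands for each genotype.

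Coenzyme Q is a lipid of the inner mitochondrial membrane that takes electrons from dehydrogenases and passes them to the cytochrome bc1 complex. It consists of a benzoquinone ring and a long isoprenoid tail, which are joined in mitochondria and then hydroxylated, decarboxylated and methylated by a membrane-bound assembly of Coq proteins. Yeast cells growing on glucose ferment most of it, and many of their respiratory genes are held at reduced expression. Strains that lack a gene required for the synthesis cannot grow on a non-fermentable carbon source.

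The values are intensities whose scale the sources do not state. They were taken as linear from their range and as already scaled from their nearly equal array means, and every ratio and log2 difference rests on that reading. Averaged over every probe set, the 6 arrays read 146 to 148. Background, read as the 99th percentile of the probe sets for another organism, was 3.7, and all 10 COQ genes lay above it on all 6 arrays, the lowest value being 21.3 times background. The mRNA of the mutated histone gene does not check the strain labels, since a substitution need not alter its level. HTB1 read 1204 ± 50.5 in H2B K111A cells and 1280 ± 40.5 in wild-type cells (SD, n = 3 each), while HTB2 was close to background at 3.73 ± 0.25 in the mutant and 3.90 ± 0.17 in wild type. Levels of different probe sets depend on their sequences, so no COQ gene's level is set against another's. All log2 differences are H2B K111A minus wild type of log2(intensity + 32), a transformation that makes the difference of dim genes look smaller, and ratios are of mean intensities.

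COQ6 was the member that stood apart. It encodes a flavin-dependent monooxygenase that hydroxylates the ring. COQ6 read 260.5, 260.4 and 238.9 on the 3 H2B K111A arrays, against 200.2, 184.7 and 176.7 on the 3 wild-type arrays. Every mutant array was above every wild-type array, and the gap between the lowest mutant and the highest wild-type value exceeded the SD of either strain. The mean was 253 ± 12.4 in the mutant and 187 ± 11.9 in wild type (SD, n = 3 each), a ratio of 1.35 and a log2 difference of 0.38 ± 0.05 (SE). By size of the log2 difference COQ6 was number 12 among the rises of all 5449 genes. Leaving out any 1 array gave a log2 difference between 0.35 and 0.42, with the lowest value without wild-type array 3 and the highest without wild-type array 1.

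**Figure D1:**
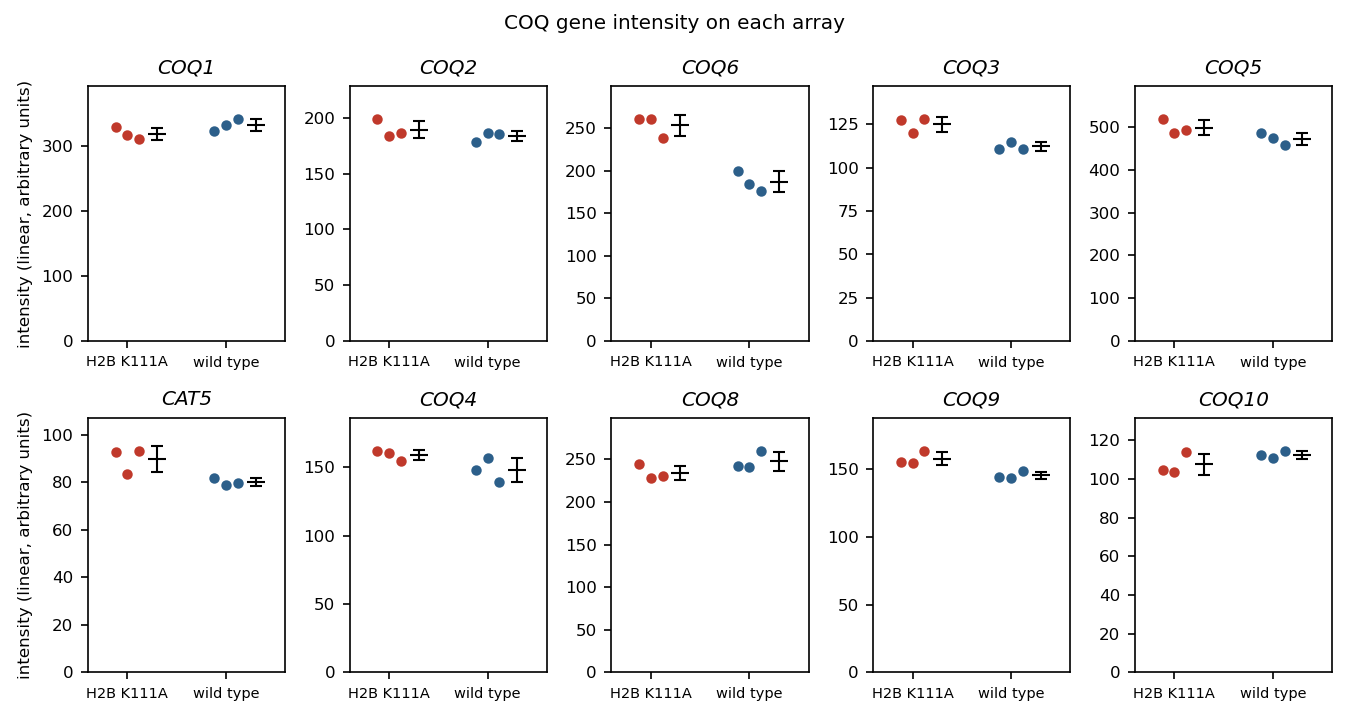
Intensity (linear, arbitrary units, each axis from 0) of the 10 COQ genes. Points are single arrays, H2B K111A in red and wild type in blue, and the black bar beside each group is its mean ± SD (n = 3). COQ6 lay at 239 to 261 on the mutant arrays and at 177 to 200 on the wild-type arrays. For 6 of the genes the arrays of the strains overlap.

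The genes for the tail and its attachment to the ring differed little. COQ1 encodes the synthase that builds the isoprenoid tail. It read 329.6, 317.6 and 311.9 in H2B K111A cells and 323.6, 333.2 and 341.9 in wild-type cells. The arrays of the strains overlapped, and the log2 difference was -0.05 ± 0.04 (SE). COQ2 encodes the transferase that attaches the tail to the ring precursor. It read 198.9, 183.9 and 186.3 in the mutant and 178.4, 186.7 and 185.6 in wild type. One mutant array lay above the other 5 arrays, which were mixed, and the log2 difference was 0.04 ± 0.04 (SE).

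The genes of the ring modifications were all higher on average in the mutant, and COQ6 by the widest margin. Besides COQ6 these are COQ3, COQ5 and CAT5. COQ3, the O-methyltransferase that acts at both O-methylation steps, read 127.3, 120.1 and 128.0 in H2B K111A cells and between 110.8 and 115.1 on the 3 wild-type arrays, with a wild-type mean of 112.3. The strains did not overlap, and COQ3 had a ratio of 1.11 and a log2 difference of 0.12 ± 0.04 (SE). CAT5, a di-iron hydroxylase that adds the last ring hydroxyl group, read 92.7, 83.6 and 93.3 in the mutant and 81.8, 78.7 and 79.7 in wild type. Its strains also did not overlap, although mutant array 2 lay close to the wild-type values, and its ratio was 1.12 with a log2 difference of 0.12 ± 0.04 (SE). COQ5, the C-methyltransferase, read 518.2, 485.1 and 492.5 in the mutant and 485.9, 474.6 and 458.0 in wild type. The strains overlapped by the narrowest of margins, at 485.1 on a mutant array and 485.9 on a wild-type array, and the log2 difference was 0.07 ± 0.04 (SE). Among these 4 genes, COQ6 included, the log2 differences had a median of 0.12. A higher mean was not particular to them, since COQ4 and COQ9, described next, had larger log2 differences than COQ5.

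The genes for the remaining proteins went in both directions. COQ4 encodes an organiser of the Coq assembly. It read 162.0, 160.2 and 154.7 in H2B K111A cells and 147.8, 156.5 and 139.4 in wild-type cells. Only wild-type array 2 reached into the mutant range, and the log2 difference was 0.09 ± 0.04 (SE). COQ9 encodes a lipid-binding protein that works with Coq7, the product of CAT5. It read 155.2, 154.6 and 163.5 in the mutant and 144.5, 143.5 and 148.3 in wild type. The strains did not overlap, and COQ9 had a ratio of 1.08 and a log2 difference of 0.10 ± 0.03 (SE).

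COQ8 and COQ10 were lower on average in the mutant, like COQ1. COQ8 encodes an atypical kinase-like ATPase that the assembly requires. It read 243.9, 228.6 and 230.2 in H2B K111A cells and 242.1, 240.5 and 260.0 in wild-type cells. The highest mutant array lay within the wild-type range, and the log2 difference was -0.07 ± 0.04 (SE). COQ10 encodes a START-domain protein that binds coenzyme Q and is needed for its function in respiration rather than for making the ring. It read 104.8, 103.7 and 113.8 in the mutant and 112.4, 110.5 and 114.5 in wild type. Mutant array 3 fell among the wild-type values, and the log2 difference was -0.05 ± 0.04 (SE).

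**Figure D2:**
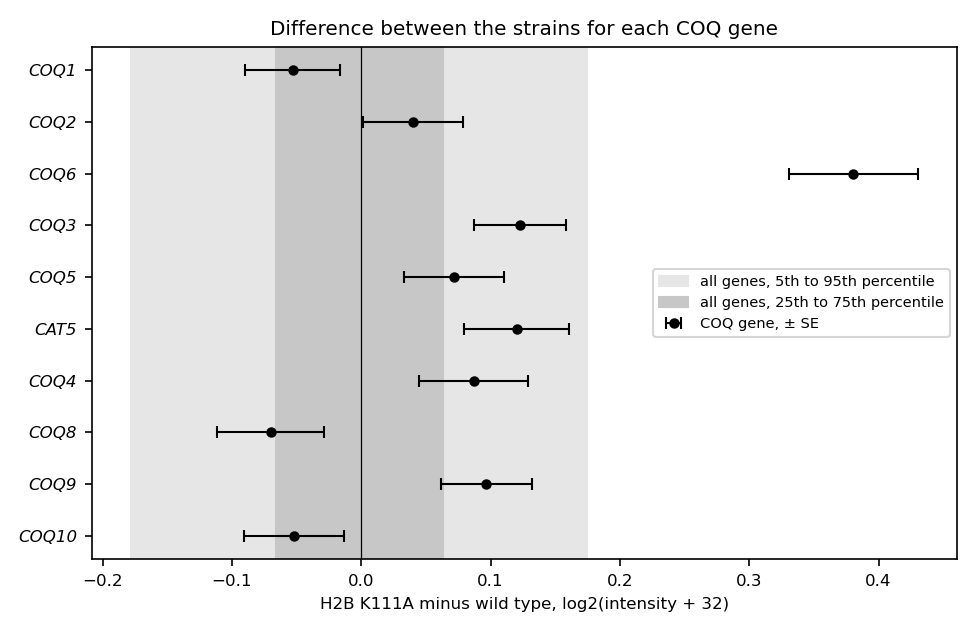
Log2 difference, H2B K111A minus wild type, for each COQ gene on the log2(intensity + 32) scale, with SE bars from the fit over all genes (n = 3 arrays each). The light band spans the 5th to 95th percentile of all 5449 genes (-0.18 to 0.17) and the dark band the 25th to 75th (-0.07 to 0.06). COQ6 lies beyond the light band at 0.38, and the other 9 genes lie between -0.07 and 0.12, within it.

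Set beside the other 9 COQ genes, COQ6 had the same direction as most of them and a larger difference than any. The log2 differences of the other 9 ran from -0.07 (COQ8) to 0.12 (COQ3), with 6 above 0 and 3 below. Their median was 0.07, against a median of -0.0005 over all 5449 genes. The difference of COQ6 exceeded that of COQ3 by 0.26 and the median of the other 9 by 0.31. COQ3 and CAT5 differed by less than their SE, and CAT5 was the higher of them with a pseudocount of 1 (0.16 against 0.15 for COQ3). The median absolute log2 difference of the other 9 was 0.07, and that of all genes was 0.06. The signs of all 10 members were kept in each of the 12 alternative treatments of the data, but single arrays moved several of the small differences by more than 1.5 times. Without mutant array 1, COQ2 was at 0.01 and COQ5 at 0.05, and without wild-type array 1 COQ2 was at 0.02. Without wild-type array 3, COQ1 was at -0.04, COQ4 at 0.05 and COQ8 at -0.04. COQ10 was at -0.03 without mutant array 2 and at -0.08 without mutant array 3.

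The distance between COQ6 and the rest of the group, on which COQ6 was selected, is described here array by array. These values restate that difference and add no support to it. The log2 value of COQ6 minus the mean of the other 9 was 0.41, 0.46 and 0.31 on the H2B K111A arrays, against 0.15, 0.04 and -0.02 on the wild-type arrays. Its mean was 0.39 ± 0.07 in the mutant and 0.05 ± 0.08 in wild type (SD, n = 3 each), a difference of 0.34. The highest wild-type array lay below the lowest mutant array. Mutant array 3 and wild-type array 1 were the arrays on which COQ6 lay closest to its own mean, with deviations of 0.12 and -0.11, against 0.23 on both other mutant arrays and -0.21 and -0.26 on the other wild-type arrays.

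The other 9 genes did not follow COQ6 on every array. On mutant array 1, 8 of the 9 were above their own mean over the 6 arrays, on mutant array 3, 6 were, and on mutant array 2 only 3 were. On wild-type arrays 1, 2 and 3 the number was 3, 4 and 3. The mean deviation of the 9 genes was 0.05, -0.01 and 0.03 on the mutant arrays and between -0.03 and -0.02 on the wild-type arrays. On mutant array 2, where COQ6 was high, the mean deviation of the 9 genes was thus close to that on the wild-type arrays. This mean joins genes of opposite direction. On that array COQ3, CAT5, COQ4 and COQ9 lay above every wild-type array, and COQ1, COQ8 and COQ10 lay below every one.

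**Figure D3:**
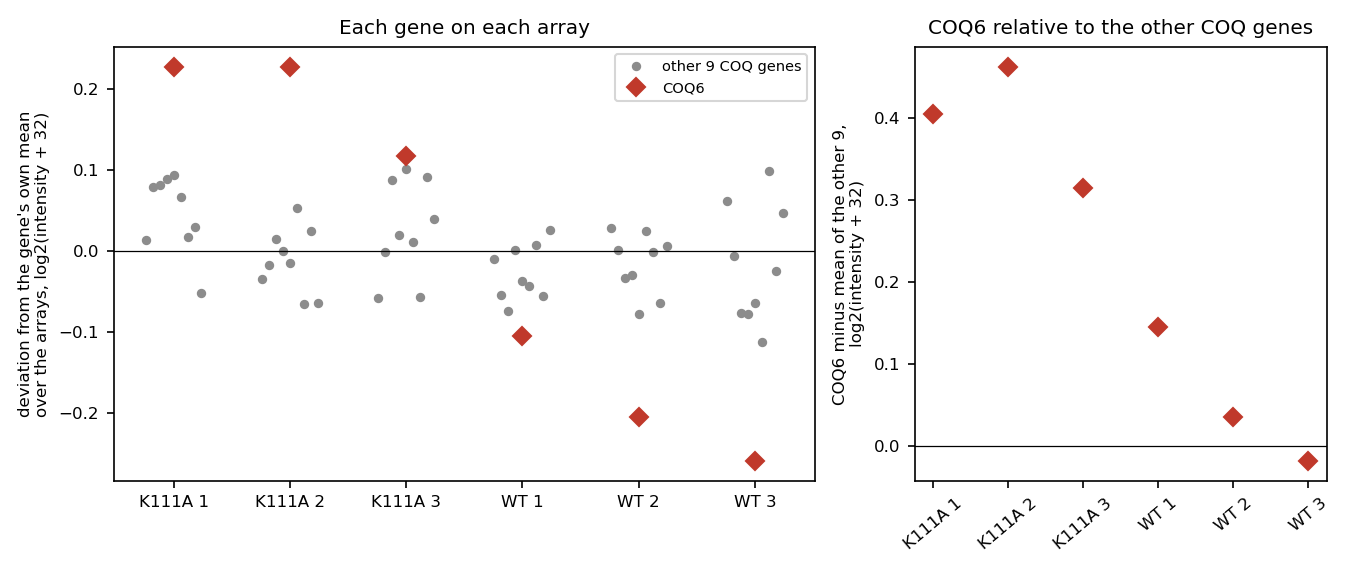
Left, deviation of each COQ gene from its own mean over the 6 arrays, in log2(intensity + 32) units, with COQ6 as red diamonds and the other 9 genes in grey. COQ6 was at 0.12 to 0.23 on the H2B K111A arrays and at -0.26 to -0.11 on the wild-type (WT) arrays. Right, COQ6 minus the mean of the other 9 genes on each array, at 0.31 to 0.46 on the mutant arrays and -0.02 to 0.15 on the wild-type arrays.

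The members varied between arrays of 1 strain by amounts on both sides of the median gene. The pooled within-strain SD on the log2 scale ran from 0.03 for COQ9 to 0.07 for COQ6, with a median of 0.04, against a median of 0.05 over all genes. That of COQ6 was at the 75.8th percentile of all genes. COQ6 thus had the widest spread of the 10 as well as the largest difference. In the limma fit over all genes, with Benjamini-Hochberg adjustment and a threshold of 0.05, 1 of the 10 members, COQ6, was past the threshold, upwards. The background was 14.5% of all genes, 6.92% upwards and 7.62% downwards. Mutant and wild-type arrays did not overlap for 4 members, COQ6, COQ3, CAT5 and COQ9, all with the mutant above, where 18.2% of all genes had the mutant above, 18.6% had it below and 36.7% had either. Because the members were chosen on this contrast, nothing is read from these counts. Without mutant array 2 the count of members was 2, CAT5 being added, while 8.35% of all genes passed.

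The genes whose pattern over the 6 arrays was most like that of COQ6 were HXK1, VMR1, ADH2, ARG1 and ATP17. Likeness was the Euclidean distance between the genes' log2 deviations from their own means, among genes above background on all arrays. HXK1, a hexokinase gene, was nearest with a distance of 0.06, and read 529 ± 22.6 in the mutant and 402 ± 31.0 in wild type (SD, n = 3 each). The other 4 lay at 0.11 to 0.12. VMR1 encodes a vacuolar ABC transporter, ADH2 the alcohol dehydrogenase that consumes ethanol, ARG1 an enzyme of arginine synthesis and ATP17 a subunit of the ATP synthase. ADH2 read 313 ± 25.7 in the mutant and 233 ± 7.51 in wild type (SD, n = 3 each). By this distance the closest COQ gene, COQ3, was number 538 of 5304 genes with 0.36, and the farthest, COQ8, was number 3999 with 0.59. These ranks describe 6 arrays in 2 groups, and a gene with a difference of like size and like replicate spread will be near whatever its role. Because COQ6 was selected for a difference unlike that of the other COQ genes, their large distances were built in. Correlations with COQ6 over the 6 arrays, which ignore the size of a difference, ran from 0.83 for COQ3 to -0.73 for COQ10. They were negative for COQ1, COQ8 and COQ10, the genes lower on average in the mutant, and positive for the others.

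The genes next to the COQ genes on the chromosomes were examined because the rule did not use them. Of 20 immediate protein-coding neighbours, ordered by the RefSeq R64 table, 18 were measured, and none overlapped a COQ gene. COQ6, systematic name YGR255C, lies between ENO1 (YGR254W), an enolase gene, and GND2 (YGR256W), a gene of the pentose phosphate pathway. The letters that end the names give the strand, so COQ6 and GND2 are transcribed away from each other and share the intervening region. GND2 read 68.6, 57.4 and 65.9 in H2B K111A cells and 65.0, 58.4 and 53.9 in wild-type cells. The strains overlapped, and the log2 difference was 0.08 ± 0.06 (SE, limma adjusted p = 0.404). ENO1 read 1270 ± 59.4 in the mutant and 1340 ± 36.3 in wild type (SD, n = 3 each, limma adjusted p = 0.256). Neither neighbour of COQ6 thus passed the test.

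Among all 18 measured neighbours 2 rose and 1 fell, which is 16.7% past the threshold beside 14.5% of all genes. Both that rose flank CAT5. UBP2, a ubiquitin protease gene, read 263 ± 2.27 in the mutant and 232 ± 14.7 in wild type (limma adjusted p = 0.0416), and IAH1, an esterase gene, 138 ± 5.20 in the mutant and 121 ± 1.97 in wild type (limma adjusted p = 0.0258; SD, n = 3 each). CAT5 itself had a ratio of 1.12, beside 1.13 for UBP2 and 1.14 for IAH1, and all 3 genes lie on the same strand. The neighbour that fell was RER2, of dolichol synthesis, which is transcribed away from COQ1. RER2 read 158 ± 7.05 in the mutant and 188 ± 11.7 in wild type (SD, n = 3 each, limma adjusted p = 0.0224). UBP2 passed only without wild-type array 1 (adjusted p = 0.0430) when single arrays were left out, and reached 0.114 without mutant array 3. The IAH1 call was lost without mutant arrays 1 or 3 or wild-type arrays 1 or 2 (0.0592 to 0.0987), and the RER2 call without mutant arrays 1 or 3 or wild-type array 1 (0.0517 to 0.0873). Without mutant array 1 or mutant array 3 no neighbour passed.

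Among the genes that supply coenzyme Q synthesis, calls went in both directions. Of 15 genes that make isoprenoid precursors or use them for other products, 3 fell and 0 rose in the limma test, 20.0% beside 14.5% of all genes, with a median log2 difference of -0.03. They were IDI1, the isomerase that balances the isoprenoid building blocks (735 ± 16.1 in the mutant and 827 ± 16.0 in wild type), RER2, and the dim gene SRT1, also of dolichol synthesis (8.87 ± 0.74 in the mutant and 13.8 ± 2.54 in wild type; SD, n = 3 each). Of 11 genes of the aromatic ring supply, ARO7 fell and ARO1 rose, 18.2% beside the same 14.5%. ARO7, chorismate mutase, read 295.9, 299.5 and 294.4 in H2B K111A cells and 406.7, 369.5 and 346.8 in wild-type cells, and was 1.26-fold lower in the mutant (limma adjusted p = 0.00884). ARO1, the multifunctional enzyme that leads to chorismate, had a ratio of 1.10 (limma adjusted p = 0.0403). HFD1, the dehydrogenase that makes the ring precursor from its aldehyde, read 211 ± 11.96 in the mutant and 182 ± 13.2 in wild type (SD, n = 3 each) and missed the threshold (limma adjusted p = 0.0520). It was chosen after its value was seen, because it passed in some alternative limma fits. These were the filter on dim genes (adjusted p = 0.0480), an intensity trend (0.0489) and a block for replicate number (0.0463). It also passed without wild-type array 1 (0.0338), but not with any other array left out.

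The genes that serve single steps did not pass in the limma test, where 14.5% of all genes did. Coq3 and Coq5 use S-adenosylmethionine, and 0 of 3 genes of its synthesis and mitochondrial import passed the limma test, 0 of them at an unadjusted p under 0.05. PET8, the mitochondrial carrier, read 65.1 ± 1.92 in the mutant and 69.9 ± 3.59 in wild type, and SAM1 818 ± 25.2 in the mutant and 843 ± 11.0 in wild type (SD, n = 3 each). Coq6 receives electrons through ferredoxin and its reductase. ARH1, the reductase, read 161.3, 138.9 and 161.7 in the mutant and 144.7, 139.7 and 137.6 in wild type, and YAH1, the ferredoxin, 204 ± 8.72 in the mutant and 207 ± 5.78 in wild type (SD, n = 3 each). For both genes the strains overlapped, with limma adjusted p of 0.203 and 0.754, and at an unadjusted p under 0.05 there were 0. ARH1 passed without mutant array 2 (adjusted p = 0.0486), the array on which it was lowest among the mutant arrays. Of 10 measured regulators and partners of the Coq assembly 0 passed. The share of all genes with an unadjusted p under 0.05 was not computed, so nothing is read from the unadjusted counts in this paragraph. In this list 2 genes had an unadjusted p under 0.05. They were MMM1, of the contact sites between mitochondria and the endoplasmic reticulum (limma log2 difference -0.12 ± 0.05, SE, unadjusted p = 0.0397), and PUF3, an RNA-binding protein that represses mRNAs of mitochondrial proteins (-0.09 ± 0.04, SE, unadjusted p = 0.0406).

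Most genes whose products reduce or oxidise coenzyme Q had a higher mean in the mutant. Of 12 genes for dehydrogenases and electron transfer proteins that feed electrons into it, 11 had a log2 difference above 0. In the limma test 4 rose and 0 fell, 33.3% where 6.92% of all genes rose and 14.5% passed in either direction. Several of the 12 genes encode subunits of the same enzyme, as SDH1 and SDH2 do. No test of the list was made. Their median log2 difference was 0.13, beside 0.07 for the 9 COQ genes other than COQ6 and -0.0005 for all genes. NDI1, the internal NADH dehydrogenase, read 217.6, 206.8 and 215.8 in H2B K111A cells and 175.7, 181.4 and 161.5 in wild-type cells, with no overlap and a ratio of 1.23 (limma adjusted p = 0.00843). The succinate dehydrogenase genes SDH1 and SDH2 had ratios of 1.13 and 1.12, and GUT2, glycerol-3-phosphate dehydrogenase, 1.19 (limma adjusted p = 0.0258, 0.0398 and 0.0482). The 33.3% depended on the setting. With a pseudocount of 1 only NDI1 of the 12 passed, where 8.97% of all genes did. NDI1 was also the only one with a block for replicate number (6.35% of all genes). The same held without mutant array 1 (5.56%) or mutant array 3 (3.91%). All 9 genes of the bc1 complex had a difference above 0 on the full set of arrays, with a median of 0.05. That uniform direction depended on mutant array 1. Without it QCR6, QCR7 and QCR10 were at -0.01, -0.03 and -0.02. Of the 9 genes 1, CYT1, cytochrome c1, rose, 11.1% beside 6.92% of all genes. CYT1 read 609.9, 591.3 and 608.1 in the mutant and 477.9, 466.9 and 479.9 in wild type, a ratio of 1.27 (limma adjusted p = 0.00162). Of 15 transcription regulators of respiratory genes 1 rose and 0 fell, with a median of -0.02. That is 6.67%, beside 6.92% of all genes that rose and 14.5% that passed in either direction. The regulator that rose was HAP4, the activating subunit of the Hap2/3/4/5 factor, at 239 ± 11.8 in the mutant and 202 ± 14.4 in wild type (SD, n = 3 each, limma adjusted p = 0.0290).

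**Figure D4:**
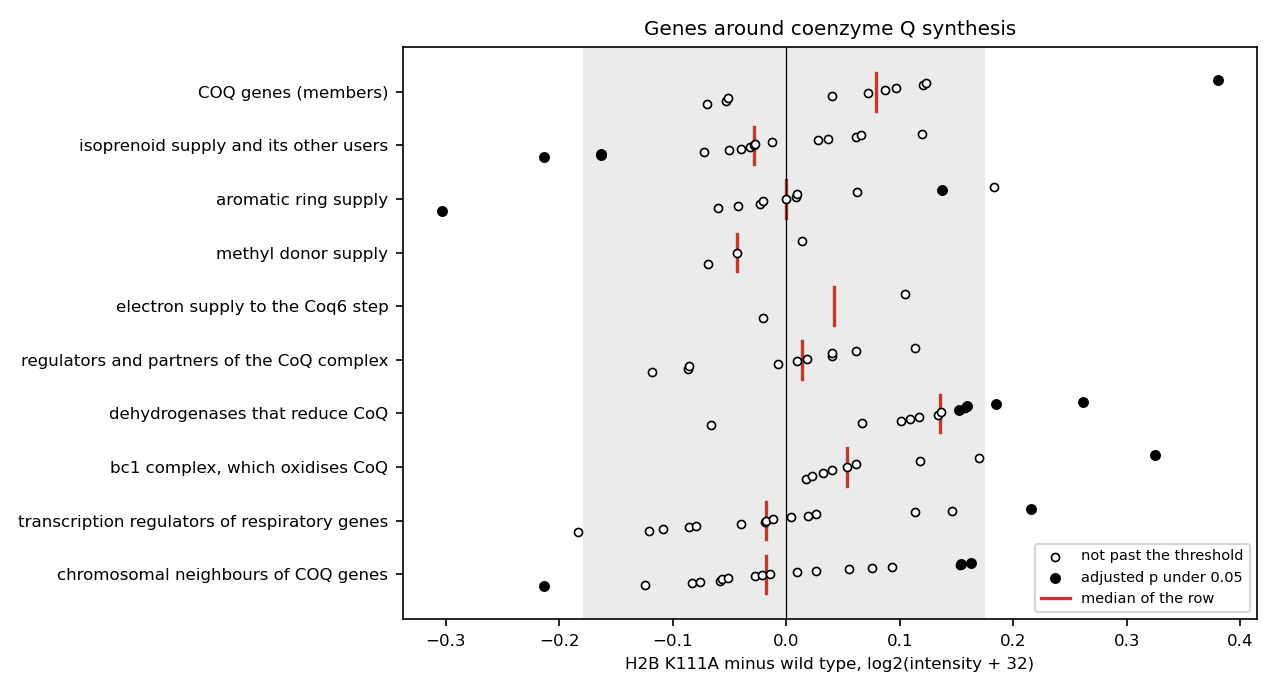
Log2 difference, H2B K111A minus wild type, on the log2(intensity + 32) scale, for the COQ genes, the 8 lists of genes around their pathway and the chromosomal neighbours. Each point is a gene, filled where its adjusted p from limma was under 0.05, the red line is the median of the row, and the grey band is the 5th to 95th percentile of all genes. COQ6 at 0.38 is the rightmost point, CYT1 at 0.33 is next, and ARO7 at -0.30 is the leftmost.

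Over all 8 lists 11 of 77 measured genes passed, 7 upwards and 4 downwards, or 14.3% beside 14.5% of all genes. Among these 11, the calls of ARO7, NDI1 and CYT1 held whichever array was left out, with adjusted p of at most 0.0424, 0.0418 and 0.0121. Those of ARO1 and SDH1 were lost without any 1 of the 6 arrays (0.0547 to 0.124 and 0.0538 to 0.0807). That of SRT1 passed only without wild-type array 3, that of SDH2 only without wild-type array 1, and that of GUT2 only without mutant array 2, with values otherwise up to 0.116, 0.118 and 0.135. The HAP4 call held only without mutant array 2 or wild-type array 2, with values otherwise up to 0.103, and that of IDI1 was lost without any 1 of the 3 mutant arrays (0.0509 to 0.0619). With a pseudocount of 1 the calls of ARO1, SDH1, SDH2, GUT2 and HAP4 were lost (adjusted p = 0.0543 to 0.0807), as was that of the neighbour UBP2 (0.0768), and that of GUT2 was also lost with quantile normalization (0.0598) and an intensity trend (0.0544). Genes outside the rule that passed when an array was left out, named after their values were seen, were CIR1, of electron transfer to coenzyme Q (0.0369 without wild-type array 1), the repressor MIG1, lower in the mutant (0.0282 without wild-type array 2), and CSI2, a neighbour of COQ10, also lower (0.0387 without wild-type array 2). The count over all lists was lowest, at 3, without mutant array 1 or without mutant array 3.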

How the data were processed

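RNA of 3 H2B K111A and 3 wild-type samples was measured on single-channel arrays; per the labels' protocols about 20 µg of total RNA was made into biotinylated cRNA. The deposited table holds intensity values, read here as linear and already scaled from their range and array means. The software behind them, which could shift dim values, is not given in the sources used here. Of 10928 probe sets, 5498 matched a RefSeq R64 gene through the array annotation's gene identifier. For 47 genes with several sets the brightest by its mean over the 6 arrays was kept. Log2(intensity + 32) values were compared in limma 3.58.1 (R 4.3.3; lmFit, eBayes), two-sided, adjusted over 5449 genes; the fit was tested on simulated data. The number of arrays limits the precision. Members, lists and tests were chosen with earlier results of these data known. Text names all members, up to 4 genes past the threshold per list (up to 2 by unadjusted p where none passed), both COQ6 neighbours, neighbours past the threshold, the 5 genes most like COQ6, and the H2B genes. Alternatives covered pseudocount, normalization, a dim-gene filter, probe set choice, a replicate block, an intensity trend and leaving out each array. No coordinates are given, and promoter and protein sequences were not used here. Figures were drawn with matplotlib 3.10.9.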

Additional observations from a re-analysis of the deposited data

How the results depend on the processing

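Across 12 alternatives the log2 difference of COQ6, which was chosen on this contrast, ranged from 0.35 to 0.42 with single arrays left out, and was 0.43 with a pseudocount of 1, and the median of the other 9 COQ genes ranged from 0.05 to 0.09. None of the 108 values of those 9 genes moved by more than 1 within-strain SD, though several moved by more than 1.5 times, COQ2 the most, from 0.01 to 0.06 with single arrays left out. The count over all genes was 489 with a pseudocount of 1, where 6 related genes passed, and 213 to 559 with single arrays left out. Leaving out single arrays gave 1 or 2 COQ members, 3 to 7 related genes and 0 to 2 neighbours. Samples that share a replicate number did not deviate together (correlations of -0.23, -0.06 and -0.17 over genes). Samples of unlike number were not compared, so these values cannot show whether the samples were prepared in pairs. The main fit used no pairing. With the replicate block 346 genes, 4 related genes and 0 neighbours passed, with 1 COQ member, COQ6, and HFD1 among the related genes (adjusted p = 0.0463). Among the related and neighbouring genes 0 calls reversed, and the cause of the lost calls was not tested; fewer arrays or degrees of freedom enter the leave-out and block fits. Signal over background does not limit the COQ genes.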
